A study of Oryza sativa with 6 samples.

Results

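Protein phosphatases 2C (PP2Cs) were measured in rice seedlings in which OsUBA had been targeted by RNA interference or overexpressed. The members were all probe sets of the array whose single annotated gene has a symbol or synonym made of PP2C and a number, with a log2 value of 5 or more on at least 2 of the 6 arrays. This took 65 probe sets of 52 genes, out of 57194 probe sets that are not controls. Before the floor of log2 5 was applied there were 72 probe sets of 55 genes, and the rice RefSeq gene table names 60 PP2C genes in all. Among the probe sets nearest the floor, the dimmest of OsPP2C66 was kept with a second-highest value of 5.11, and the dimmer of OsPP2C45 was left out with a second-highest value of 4.97.

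Seedlings were grown to the 4-leaf stage at 28 °C without treatment, and each array holds RNA of 1 biological replicate. The groups were OsUBA RNAi (double-stranded RNA against the OsUBA transcript), OsUBA overexpression and wild type of cultivar Nipponbare, with 2 arrays each; the cultivar of the transformed plants is not given in the sources used here. The promoters, the number of transformed lines behind each group and a transformed control without an OsUBA construct are not given in the sources used here. No probe set has a symbol or synonym for OsUBA, so the level of OsUBA itself was not analysed here. A reporter probe set of the array read 13.22 and 13.64 in RNAi, 3.59 and 5.09 in overexpression, and 5.15 and 3.50 in wild type. Another read 13.40 and 12.91 in RNAi, 13.96 and 14.41 in overexpression, and 3.12 and 2.97 in wild type. OsUBA and transformation can therefore not be told apart in any comparison with wild type, and the RNAi and overexpression plants differed in the first of these reporters as well. Array medians lay between log2 5.67 and 5.92. The summed signal of the 6 green leaf marker genes measured was 16.93 and 17.02 in RNAi, 16.79 and 16.88 in overexpression, and 17.06 and 16.88 in wild type on the log2 scale, with 0 genes listed at 0. Root markers (5 measured genes) and seed markers (3) had summed signals of 9.92 to 10.56 and 10.61 to 11.32 over the 6 arrays. By limma with an intensity trend, 0 genes of these 3 lists were called in any comparison. Of all probe sets, 0.19% were called higher and 0.583% lower between RNAi and wild type. The shares were 0.346% and 0.00988% between overexpression and wild type, and 0.954% and 3.31% between RNAi and overexpression. At these shares, 0 calls in lists this short do not show a like tissue content. The seed sum mostly followed GLUA2, with a log2 difference of 0.02 between RNAi and wild type. Prolamin and waxy had differences of -3.68 and -1.59 (adjusted p = 0.405 and 0.156 by the same fit), and prolamin reached log2 5 in wild type only.

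PP2Cs are metal-dependent enzymes that remove phosphate from serine and threonine residues. The best known of them in plants form clade A, the brake of abscisic acid (ABA) signalling: they hold the SnRK2 kinases, called SAPK in rice, dephosphorylated and inactive until ABA-bound PYL/RCAR receptors bind and block the phosphatase. ABA itself commonly raises the transcripts of clade A phosphatases. Other clades act elsewhere, for example in immune receptor and stress kinase pathways, and many rice members have no described role.

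RNAi seedlings were first set against wild type, a comparison in which OsUBA and transformation cannot be told apart. In clade A, all 7 measured genes were higher in both RNAi arrays than in both wild-type arrays, as were 19.9% of all probe sets, and also higher than in both overexpression arrays, as were 13.2% of all probe sets against the 4 other arrays. OsPP2C09 rose 3.05-fold and OsPP2C68 3.39-fold over wild type, and the other 5 clade A genes were 1.41-fold to 2.81-fold higher without passing the test over all probe sets. The fixed list of clade A holds 10 genes. Of these, 8 have a probe set annotated to them alone, and 7 passed the floor. The 7 lay between log2 6.97 and 11.77 on every array, so none passed through its high group alone.

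**Figure D1:**
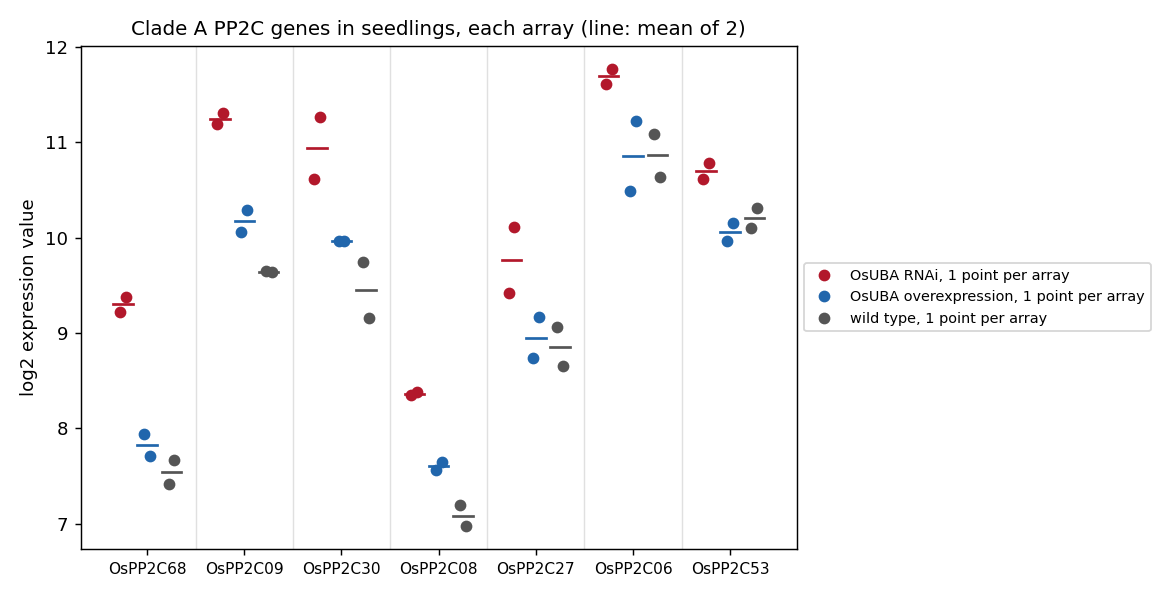
Log2 expression value (y axis) of the 7 clade A PP2C genes (x axis) on each of the 6 arrays; each point is 1 array and each short line the mean of the 2 arrays of a group (red RNAi, blue overexpression, grey wild type). Both RNAi points lie above all 4 other points in each of the 7 genes, by a smallest gap of 0.25 and a largest gap of 1.28.

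OsPP2C68 (symbol PP2C68, also listed as OsSIPP2C1), a clade A phosphatase, read 9.22 and 9.38 in RNAi, 7.94 and 7.71 in overexpression, and 7.42 and 7.66 in wild type. The RNAi arrays stood apart, while the overexpression arrays lay just above those of wild type. Its log2 difference between RNAi and wild type was 1.76 ± 0.26 (SE; limma with an intensity trend, adjusted p = 0.0332). OsPP2C09 (LOC4327465), also of clade A, read 11.19 and 11.31 in RNAi, 10.06 and 10.29 in overexpression, and 9.65 and 9.64 in wild type. Its 3 groups did not overlap, and its difference between RNAi and wild type was 1.61 ± 0.18 (adjusted p = 0.0121). Without an intensity trend neither passed (adjusted p = 0.175 for each). The OsPP2C09 call was lost without wild-type replicate 1, wild-type replicate 2 or RNAi replicate 2 (adjusted p = 0.126, 0.0905 and 0.0573), at folds of 2.92 to 3.17 over the 6 fits that leave out 1 array. The OsPP2C68 call was lost in all 6 of these fits (adjusted p = 0.0565 to 0.221), at folds of 3.11 to 3.68.

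In the other clade A genes, too, both RNAi arrays had the highest values. OsPP2C30 (LOC4332374) read 10.62 and 11.27 in RNAi, 9.96 and 9.96 in overexpression, and 9.75 and 9.15 in wild type, a log2 difference of 1.49 ± 0.28 between RNAi and wild type (adjusted p = 0.0764). OsPP2C08 (LOC4324182) read 8.35 and 8.38 in RNAi, 7.56 and 7.65 in overexpression, and 7.19 and 6.97 in wild type. The replicates of OsPP2C08 were close and its groups did not overlap, yet its difference of 1.28 ± 0.28 did not pass (adjusted p = 0.119). OsPP2C27 (LOC4331028) read 9.42 and 10.11 in RNAi, 8.74 and 9.16 in overexpression, and 9.06 and 8.65 in wild type (difference 0.91 ± 0.30 between RNAi and wild type, adjusted p = 0.315). In OsPP2C27 the 2 RNAi arrays were further apart than in the other clade A genes. OsPP2C06 (LOC4324201, also OsABIL1, named for its likeness to the Arabidopsis ABI phosphatases) read 11.61 and 11.77 in RNAi, 10.49 and 11.22 in overexpression, and 11.08 and 10.64 in wild type (difference 0.83 ± 0.27, adjusted p = 0.298). OsPP2C53 (LOC4339797, also OsABIL2) read 10.62 and 10.78 in RNAi, 9.97 and 10.15 in overexpression, and 10.10 and 10.31 in wild type (difference 0.50 ± 0.19, adjusted p = 0.383). OsPP2C51 (LOC4339671), a clade A gene described as promoting seed germination, did not pass the floor; its brighter probe set read 4.96 and 5.46 in RNAi, 4.44 and 4.55 in overexpression, and 2.27 and 3.03 in wild type, and it was not tested.

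Over all 65 probe sets, 2 were called higher and 0 lower in RNAi than in wild type. Among all 40466 probe sets that passed the floor, 0.19% were called higher and 0.583% lower in this comparison. The PP2C genes were brighter than most probe sets, with medians of log2 9.92 to 10.51 per array. Of the 40466, 14771 had a mean under log2 6, where replicates spread more. The shares of all probe sets given in the 3 comparisons are not matched for brightness. Without an intensity trend 0 members were called, against 0% of all probe sets higher and 0.00247% lower, and 8 members had an unadjusted p under 0.05 (12.3%, against 9.19% of all probe sets). With the trend 13 had one (20%, against 10.9%). Both arrays of RNAi lay above both of wild type in 24 of 65 members, which is 36.9%, against 19.9% of all probe sets, and below them in 11 members, which is 16.9%, against 20.9%. Of those 24, 7 are the clade A probe sets and 17 belong to the 58 others. By gene, the median log2 difference between RNAi and wild type was 1.28 for the 7 clade A genes, 0.07 for the 45 other PP2C genes and 0.02 for all 16691 genes. PP2C probe sets with both RNAi arrays above all 4 other arrays numbered 21 of 65, or 32.3%, against 13.2% of all probe sets. Those with both below numbered 7, or 10.8%, against 11.9%. The dimmer probe set of OsPP2C14 and the dimmest of OsPP2C66 are among these 7 and among the 11 below wild type. Their RNAi arrays read 4.29 and 2.41, and 4.31 and 3.12, so they passed the floor only through overexpression and wild-type arrays. Their place in these counts is therefore partly set by the floor.

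**Figure D2:**
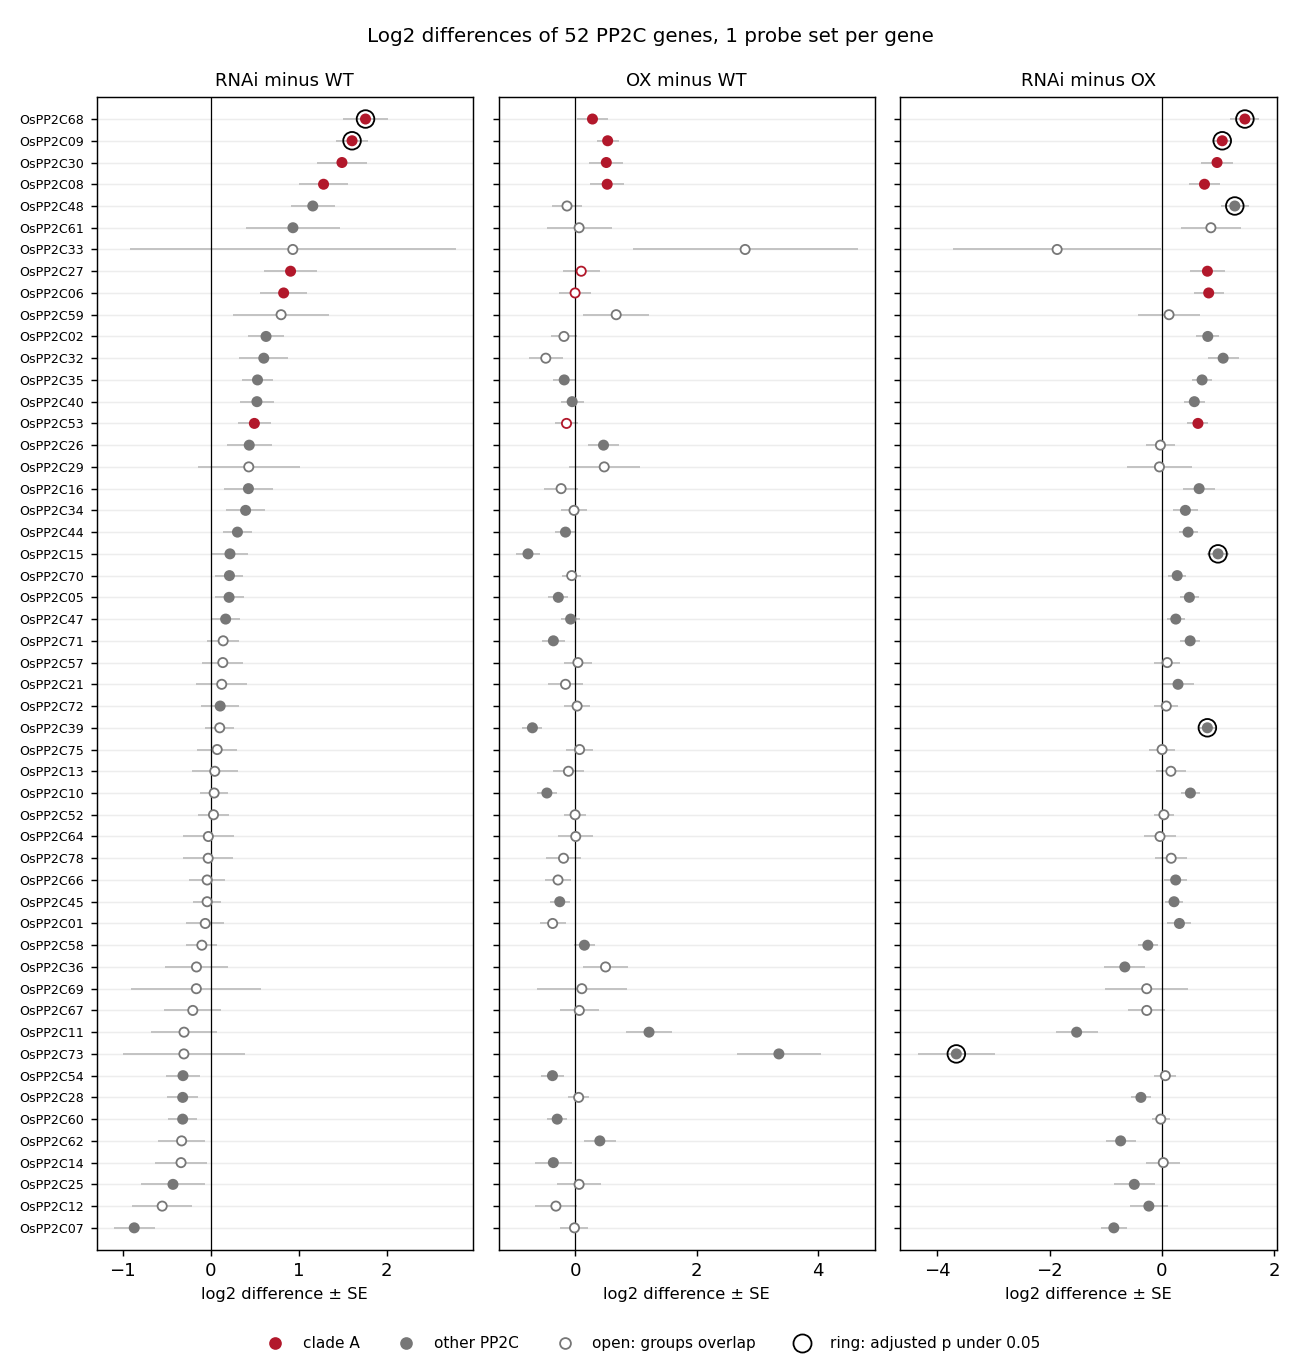
Log2 differences (x axes, ± SE from limma with an intensity trend) of the 52 PP2C genes (rows, 1 probe set per gene, sorted by RNAi minus WT) for RNAi minus WT, OX minus WT and RNAi minus OX; RNAi is OsUBA RNAi, OX overexpression and WT wild type. Red points are clade A, open points have overlapping groups and rings mark an adjusted p under 0.05; the 7 clade A points run from 0.50 to 1.76 for RNAi minus WT, and 2, 0 and 6 genes are ringed across the panels.

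Outside clade A, OsPP2C48 (LOC4338531) had the largest positive difference between RNAi and wild type among members whose groups did not overlap. It read 11.57 and 12.31 in RNAi, 10.74 and 10.54 in overexpression, and 10.85 and 10.70 in wild type, and its difference of 1.16 ± 0.25 from wild type did not pass (adjusted p = 0.115). OsPP2C35 (LOC4334600), also known as XB15, which binds the immune receptor XA21, read 10.84 and 10.84 in RNAi, 10.27 and 9.98 in overexpression, and 10.29 and 10.32 in wild type. The XB15 values in RNAi lay above all others (difference from wild type 0.53 ± 0.18, adjusted p = 0.328). OsPP2C34 (LOC4334191), also called OsBIPP2C2, read 9.80 and 9.49 in RNAi, 9.08 and 9.37 in overexpression, and 9.21 and 9.29 in wild type, with a difference of 0.40 from wild type. These last genes were picked for their described names after the values had been seen.

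With the brightest probe set standing for each gene, OsPP2C07 (LOC9269413) had the largest negative difference. It read 9.78 and 10.20 in RNAi, 10.79 and 10.89 in overexpression, and 11.09 and 10.62 in wild type, a difference of -0.87 ± 0.23 between RNAi and wild type (adjusted p = 0.195). In its second probe set, too, both RNAi arrays were lowest, at 8.97 and 8.51 in RNAi, 9.91 and 9.65 in overexpression, and 10.06 and 9.14 in wild type (difference -0.85 ± 0.33, adjusted p = 0.402). The name of this probe set differs from that of the first only in the suffix x_at, so it may not be an independent reading. Of the other genes with non-overlapping groups, OsPP2C25, OsPP2C60 and OsPP2C28 had differences of -0.43, -0.32 and -0.32 and no call (adjusted p = 0.747, 0.548 and 0.590).

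Overexpressing seedlings set against wild type show the family under the opposite construct. In clade A, 4 of the 7 genes (OsPP2C08, OsPP2C09, OsPP2C30 and OsPP2C68) had both overexpression arrays above both wild-type arrays, against 17.3% of all probe sets, 0 of the 7 had both below, against 24.4%, and the differences of these 4, at 0.28 to 0.53, did not pass (lowest adjusted p = 0.409). The other clade A genes, OsPP2C27, OsPP2C06 and OsPP2C53, had differences of 0.10, -0.0043 and -0.15. That of OsPP2C06 turned positive under both other scalings (0.00041 and 0.0038).

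Of the 65 members 0 were called between overexpression and wild type by limma with an intensity trend, against 0.346% of all probe sets called higher and 0.00988% lower, and 0 without a trend, as for all probe sets (0%). An unadjusted p under 0.05 was reached by 8 members with the trend, or 12.3%, against 9.54% of all probe sets, and by 5 without it, or 7.69%, against 8.16%. Both overexpression arrays lay above both wild-type arrays in 11 members (16.9%, against 17.3% of all probe sets) and below them in 18 (27.7%, against 24.4%). The median difference was 0.28 over clade A genes, -0.06 over other PP2C genes and -0.04 over all genes.

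The largest positive difference of overexpression from wild type was that of OsPP2C73 (LOC4349568). Its brightest probe set read 10.51 and 8.31 in overexpression and 6.15 and 5.96 in wild type, with 6.21 and 5.29 in RNAi. The overexpression arrays were well above the other 4 but 2.19 apart from each other, and the difference of 3.35 ± 0.69 from wild type did not pass (10.2-fold, adjusted p = 0.145). OsPP2C11 (LOC4328505) read 9.69 and 8.89 in overexpression and 7.92 and 8.22 in wild type, with 8.15 and 7.39 in RNAi (difference of overexpression from wild type 1.21 ± 0.37, adjusted p = 0.367). Among genes with non-overlapping groups, the lowest in overexpression relative to wild type were OsPP2C15 (LOC4329716), with a difference of -0.78 ± 0.20, OsPP2C39 (LOC9271405), with -0.71 ± 0.16, OsPP2C10 (LOC4328306), with -0.47, and OsPP2C54 (LOC4340303), with -0.38 (adjusted p = 0.271, 0.203, 0.425 and 0.585).

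The comparison of RNAi with overexpression sets the lines with opposite constructs side by side and tests directly whether a member differs between them. It shares the RNAi arrays with the first comparison and the overexpression arrays with the second. OsPP2C09 was 2.11-fold higher in RNAi than in overexpression (log2 difference 1.07 ± 0.18, adjusted p = 0.0176) and OsPP2C68 2.79-fold (1.48 ± 0.26, adjusted p = 0.0218). The other clade A genes had differences of 0.64 to 0.98 with non-overlapping groups and did not pass (adjusted p = 0.111 to 0.209). Without an intensity trend neither passed (adjusted p = 0.152 and 0.106).

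Outside clade A, 3 genes were called higher in RNAi than in overexpression. OsPP2C48 was 2.46-fold higher (1.30 ± 0.25, adjusted p = 0.0310), from the array values given above. OsPP2C15 read 9.76 and 9.72 in RNAi and 8.65 and 8.83 in overexpression, with 9.46 and 9.59 in wild type, 1.999-fold (difference 1.0 ± 0.20, adjusted p = 0.0367). OsPP2C39 read 12.17 and 11.95 in RNAi and 11.16 and 11.34 in overexpression, with 11.94 and 11.97 in wild type, 1.75-fold (0.81 ± 0.16, adjusted p = 0.0367). In OsPP2C48 wild type lay with overexpression, whereas in OsPP2C15 and OsPP2C39 wild type lay nearer to RNAi. OsPP2C73 was called lower in RNAi than in overexpression, 12.6-fold (-3.66 ± 0.69, adjusted p = 0.0284). OsPP2C32 (LOC4332509), at 10.63 and 10.64 in RNAi and 9.23 and 9.86 in overexpression, and OsPP2C11 missed the threshold (differences 1.09 and -1.52, adjusted p = 0.0777 and 0.0697), as did OsPP2C07 and OsPP2C62 (LOC4343331; differences -0.86 and -0.73, adjusted p = 0.0921 and 0.195).

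**Figure D3:**
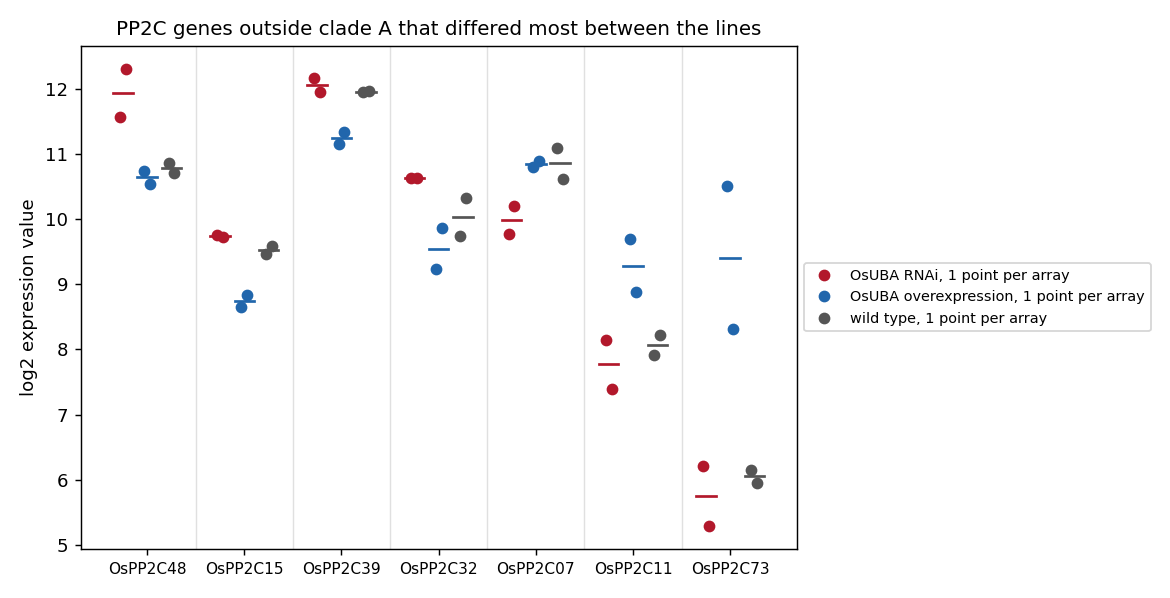
Log2 expression value (y axis) of 7 PP2C genes outside clade A (x axis) on each array; each point is 1 array and each short line a group mean (red RNAi, blue overexpression, grey wild type). OsPP2C48 is high in RNAi alone, OsPP2C15 and OsPP2C39 are low in overexpression, OsPP2C07 is low in RNAi, and OsPP2C73 is high in overexpression, at 10.51 and 8.31.

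Of the 65 members 5 were called higher and 1 lower in RNAi than in overexpression, or 7.69% and 1.54%, against 0.954% of all probe sets called higher and 3.31% lower. Without a trend 0 were called, against 0% of all probe sets higher and 0.0124% lower. An unadjusted p under 0.05 was reached by 25 members with the trend and 16 without it, or 38.5% and 24.6%, against 18.5% and 14.7% of all probe sets. Both RNAi arrays lay above both overexpression arrays in 29 members (44.6%, against 29.2% of all probe sets) and below them in 15 (23.1%, against 22.3%). The 15 include the dim probe sets of OsPP2C14 and OsPP2C66 that passed the floor only outside RNAi. The median difference was 0.83 over clade A genes, 0.13 over other PP2C genes and 0.07 over all genes. Leaving out 1 array ended most of these calls. OsPP2C15 and OsPP2C39 passed in 0 of the 6 such fits (adjusted p = 0.0644 to 0.242 and 0.0677 to 0.263), and OsPP2C48 only when RNAi replicate 1 was left out (3.17-fold, adjusted p = 0.00745); its adjusted p was 0.0710 to 0.168 in the remaining fits. OsPP2C68 passed only without either wild-type replicate (adjusted p = 0.0402 and 0.0405), and OsPP2C09 only without either wild-type replicate or RNAi replicate 1 (adjusted p = 0.0402, 0.0394 and 0.0466). OsPP2C73 passed only without overexpression replicate 2 or RNAi replicate 1 (27-fold, adjusted p = 0.0133, and 17.4-fold, adjusted p = 0.0331); without overexpression replicate 1 the fold was 5.91 (adjusted p = 0.171).

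Several probe sets for 1 gene allow a check within the arrays, and 9 genes had more than 1 probe set past the floor. The signs of all their probe sets matched in 7 of the 9 genes between RNAi and wild type, in 5 between overexpression and wild type and in 5 between RNAi and overexpression. OsPP2C48 had a second probe set in which both RNAi arrays were also highest, at 8.26 and 8.70 in RNAi, 8.04 and 7.76 in overexpression, and 8.17 and 7.81 in wild type, and a smaller difference of 0.58 between RNAi and overexpression (adjusted p = 0.347). That of OsPP2C39 had a difference of 0.61 in the same comparison (adjusted p = 0.408). OsPP2C73 had 4 probe sets. Beside the brightest, 2 others were also higher in both overexpression arrays than in both of RNAi (differences of RNAi from overexpression -2.64 and -1.16, adjusted p = 0.0681 and 0.546). The fourth went the other way, with 5.35 and 6.22 in RNAi against 4.38 and 6.52 in overexpression (0.34). The called probe sets of OsPP2C73 and OsPP2C39 carry the suffix s_at, as does the OsPP2C73 probe set at -2.64. The array maker uses this suffix for probe sets that can match more than 1 transcript.

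**Figure D4:**
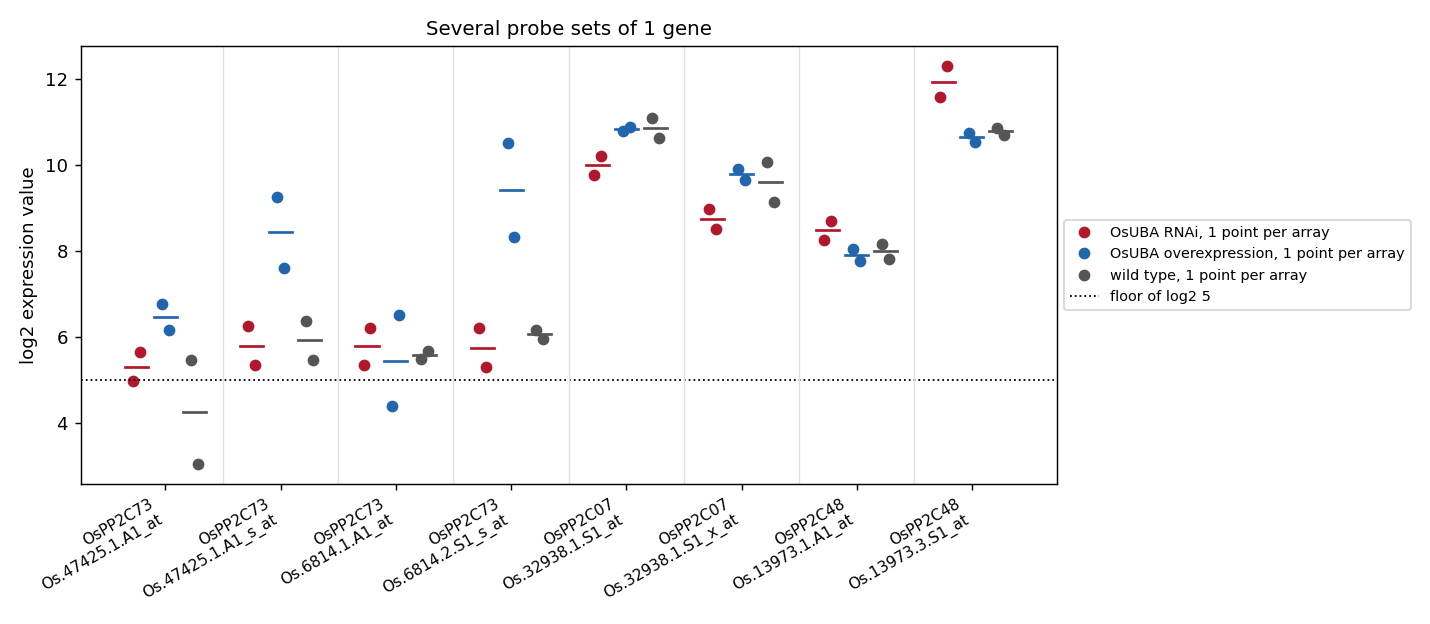
Log2 expression value (y axis) of all probe sets past the floor for OsPP2C73, OsPP2C07 and OsPP2C48 (x axis) on each array; points are arrays, short lines group means (red RNAi, blue overexpression, grey wild type) and the dotted line the floor of log2 5. Of the 4 OsPP2C73 probe sets 3 are higher in overexpression than in RNAi and 1 is not, while the probe sets of OsPP2C07 and of OsPP2C48 keep the same order of RNAi against the rest.

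The probe sets of OsPP2C05 (LOC4325851), OsPP2C10 and OsPP2C01 (LOC4324414) gave the brightest signal, which does not rank transcripts of different genes. OsPP2C05 read 12.95 and 13.30 in RNAi, 12.65 and 12.62 in overexpression, and 12.90 and 12.94 in wild type, with the overexpression arrays lowest. OsPP2C01 read 12.66 and 12.82 in RNAi, 12.24 and 12.61 in overexpression, and 13.05 and 12.55 in wild type, where the RNAi and overexpression values both overlapped those of wild type. OsPP2C10 read 13.02 and 13.10 in RNAi, 12.39 and 12.72 in overexpression, and 13.04 and 13.00 in wild type. OsPP2C13 (LOC4328913), also called DCW11 and linked to cytoplasmic male sterility, read 9.36 and 10.01 in RNAi, 9.62 and 9.43 in overexpression, and 9.50 and 9.78 in wild type, with overlapping groups in all 3 comparisons. The SD between the 2 arrays of a group had a median of 0.20 in RNAi, 0.13 in overexpression and 0.18 in wild type over the 52 genes. OsPP2C33 (LOC4332577) varied most, from 2.24 to 5.18 in RNAi, 4.52 to 6.63 in overexpression and 0.51 to 5.05 in wild type.

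The partners of clade A in ABA signalling were read from the same fits. Of 25 measured genes in 5 role groups, 0 were called between RNAi and wild type, against 0.19% of all probe sets higher and 0.583% lower. Between overexpression and wild type 0 were called, against 0.346% higher and 0.00988% lower. At shares this small, 0 calls among 25 genes do not show that the genes were unchanged. Between RNAi and overexpression 3 were called (2 higher, 1 lower in RNAi), against 0.954% and 3.31% of all probe sets. Without a trend 0 were called in each comparison. The 1 measured receptor, OsPYL11 (LOC4338104, also listed as OsPYL5), read 11.98 and 12.14 in RNAi, 11.34 and 11.49 in overexpression, and 11.57 and 11.81 in wild type, with a difference of 0.65 from overexpression (adjusted p = 0.0833). Among 10 SAPK kinases, both RNAi arrays lay below all 4 others in 3 (SAPK3, SAPK4 and SAPK5), against 11.9% of all probe sets. In 1, SAPK6, both lay above, against 13.2%. SAPK3 had a difference of -1.31 between RNAi and overexpression and missed the threshold (adjusted p = 0.0619). Of the 10 kinases, 0 were called between RNAi and wild type, against the shares given above. Between RNAi and overexpression 1 was called, lower in RNAi. This was SAPK4 (LOC4324934), at 10.88 and 10.89 in RNAi, 12.39 and 11.96 in overexpression, and 11.42 and 11.51 in wild type (-1.29 ± 0.19, 2.44-fold lower, adjusted p = 0.0101). It passed in 5 of the 6 fits that leave out 1 array, and not without overexpression replicate 1 (adjusted p = 0.104).

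Of 3 ABA-response transcription factors, bZIP23 (LOC4330838), a positive regulator of ABA-responsive genes, read 11.74 and 12.22 in RNAi, 11.39 and 11.54 in overexpression, and 10.94 and 10.77 in wild type. Its groups did not overlap, and the difference of 1.12 between RNAi and wild type missed the threshold (adjusted p = 0.0635). Of 3 genes of ABA synthesis and breakdown, ABA8OX2 (LOC4345810, probe set suffix s_at) encodes an ABA 8'-hydroxylase that inactivates the hormone. It read 10.57 and 10.85 in RNAi, 9.42 and 9.52 in overexpression, and 10.01 and 9.91 in wild type. It was 2.36-fold higher in RNAi than in overexpression (1.24 ± 0.19, adjusted p = 0.0125), a call lost without overexpression replicate 1, overexpression replicate 2 or RNAi replicate 2 (adjusted p = 0.128, 0.0562 and 0.0830). OsZEP1 (LOC4335984), a zeaxanthin epoxidase at the start of ABA synthesis, was 1.66-fold higher in RNAi than in overexpression (0.73 ± 0.15, adjusted p = 0.0365), at 13.11 and 12.95 in RNAi, 12.31 and 12.30 in overexpression, and 12.75 and 12.64 in wild type, and that call was lost in all 6 fits that leave out 1 array (adjusted p = 0.0596 to 0.228).

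**Figure D5:**
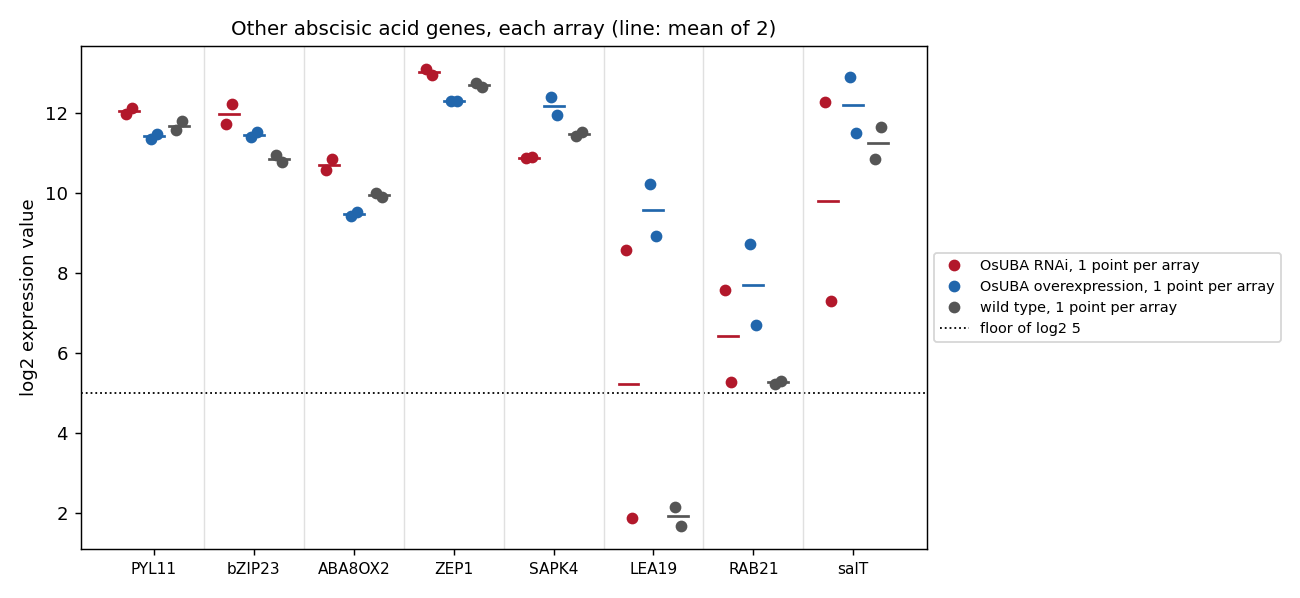
Log2 expression value (y axis) of 8 other ABA genes (x axis: a receptor, a transcription factor, 2 genes of ABA metabolism, a kinase and the 3 ABA-inducible genes with the widest gap between the RNAi arrays) on each array; points are arrays, short lines group means (red RNAi, blue overexpression, grey wild type) and the dotted line the floor of log2 5. The RNAi points lie close together for the first 5 genes and far apart for LEA19 and salT, at 8.59 and 1.89 and at 12.28 and 7.30.

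Of 8 measured ABA- and stress-inducible late embryogenesis, dehydrin and related genes, 0 were called in any of the 3 comparisons. At the small shares of all probe sets given above for each comparison, this does not show that they were unchanged. RNAi minus wild type was positive in 4 of the 8 (median 0.34, against 0.02 over all genes). Overexpression minus wild type was positive in 7 (median 0.62, against -0.04), and RNAi minus overexpression in 2 (median -0.81, against 0.07). RAB16C and Osem, 2 of the 8, had both RNAi arrays above all 4 others, against 13.2% of all probe sets. In 0 were both below, against 11.9%. RAB16C (LOC4350452), a dehydrin, read 7.78 and 8.51 in RNAi, 6.65 and 6.13 in overexpression, and 7.54 and 6.20 in wild type. Osem (LOC4338499), an Em-type late embryogenesis gene, read 6.76 and 6.58 in RNAi, 6.15 and 6.31 in overexpression, and 5.49 and 6.37 in wild type. In 3 others the RNAi arrays were furthest apart. LEA19 (also LEA3) read 8.59 and 1.89 in RNAi, 10.23 and 8.93 in overexpression, and 2.17 and 1.68 in wild type. RAB21 (LOC4350454), a dehydrin, read 7.59 and 5.28 in RNAi, 8.72 and 6.70 in overexpression, and 5.24 and 5.31 in wild type, and salT (LOC4326471) read 12.28 and 7.30 in RNAi, 12.91 and 11.50 in overexpression, and 10.86 and 11.65 in wild type. Over the 8 genes the RNAi arrays were 0.0042 to 6.69 apart, with a median of 1.34, against 0.03 to 0.69 and a median of 0.16 over the 7 clade A genes; this difference was not tested.

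Of the stress and wounding markers, 3 of 20 were called higher and 0 lower in RNAi than in wild type, against 0.19% and 0.583% of all probe sets, and 5 higher and 0 lower in RNAi than in overexpression, against 0.954% and 3.31%. Without an intensity trend 0 of the 20 were called in each comparison. All 5 of the genes called with the trend encode JAZ proteins, which hold back jasmonate responses. JAZ genes make up most of this list, and its other genes were not called in any comparison. JAZ12 (LOC4348533), with the lowest adjusted p in both comparisons with calls, read 12.22 and 12.43 in RNAi, 9.31 and 10.39 in overexpression, and 9.79 and 9.56 in wild type. The other 17 did not pass against wild type; 15 of the 20 had a positive difference, while AOS2 (LOC4332121), an allene oxide synthase of jasmonate synthesis, read 5.94 and 7.55 in RNAi, 8.07 and 9.21 in overexpression, and 8.35 and 9.81 in wild type (difference from wild type -2.34, adjusted p = 0.234). DREB1B (LOC4347618), salT and JAZ3 (LOC4345625) had differences of -1.48, -1.47 and -0.25 from wild type (adjusted p = 0.621, 0.766 and 0.782). Of this list RAB21 and salT also stand among the ABA-inducible genes. The summed signal of the list was 16.11 and 16.80 in RNAi, 15.83 and 16.02 in overexpression, and 16.07 and 15.92 in wild type on the log2 scale, with 0 of the 20 listed at 0. The part of these markers in the clade A values was not tested. In seedlings fewer cells of a type and less RNA per cell cannot be told apart.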

How the data were processed

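Transcripts were measured on 1-colour Affymetrix rice arrays from Trizol-extracted total RNA. The authors deposited 1 table of log2 expression values; per the submitters' processing notes these came from RMA (no version given), and they were used as deposited. They hold 331 to 618 exact zeros per array, which usual RMA output does not, so the way probes were summarised is unknown. The table has no detection calls, and 2 arrays a group limit the precision. Control and reporter probe sets (187) were left out, and probe sets reaching log2 5 on 2 arrays were kept (40466). Names came from the array annotation through the RefSeq table (17905 of 17905 identifiers matched). The annotation lists no gene for 34663 of the 57194 probe sets and several for 95. A gene without a named probe set may therefore still be on the array. TRAB1, which has the synonym aba1, was counted as a transcription factor only.

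Groups were compared with limma 3.58.1 in R 4.3.3 over all 6 arrays with an intensity trend, because the median SD between replicates was 1.02 under a mean of log2 6 and 0.17 at 12 and over; adjusted p values are two-sided Benjamini-Hochberg values over all kept probe sets, called under 0.05. Folds are powers of 2 of the log2 differences. The script was tested on simulated data. The members, gene lists (clade A by name), named-gene rule and test were chosen with earlier results of these data known. Named were called members, clade A, the 4 largest non-overlapping differences each way, the 3 brightest members and called ABA genes. With several probe sets, the one with the highest mean stood for the gene. Whether replicates came from separate lines is not stated.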

Additional observations from a re-analysis of the deposited data

How the results depend on the processing

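Without an intensity trend 0 PP2C probe sets were called in each comparison (as reported 2 for RNAi minus wild type, 0 for overexpression minus wild type, 6 for RNAi minus overexpression), 0 ABA genes between RNAi and overexpression (3), and 1, 0 and 5 of all probe sets (313, 144 and 1725). Fits on the 4 arrays of a comparison alone called 1 and 2 PP2C probe sets for RNAi against wild type and against overexpression, 141 of all probe sets between RNAi and wild type, and 255 of all probe sets and 1 ABA gene between overexpression and wild type. Averaged probe sets gave 3 PP2C calls between RNAi and overexpression, and centring the arrays gave 219 calls over all probe sets between overexpression and wild type. Leaving out 1 array gave 0 to 3 PP2C calls, 0 to 2 ABA genes and 16 to 716 of all probe sets for RNAi minus wild type, 0 to 1 ABA genes and 0 to 223 of all for overexpression minus wild type, and 0 to 4, 0 to 5 and 276 to 1830 for RNAi minus overexpression, where the clade A median ranged from 0.71 to 1.13. The clade A median for RNAi minus wild type stayed at 1.17 to 1.39 in these fits. Between overexpression and wild type, the uncalled difference of OsPP2C06 turned positive with quantile normalisation (0.00041), centring (0.0038) and without wild-type replicate 1 (0.22) or overexpression replicate 1 (0.36; -0.37 without overexpression replicate 2), and that of OsPP2C27 turned negative without wild-type replicate 2 (-0.11) or overexpression replicate 2 (-0.11; 0.31 without overexpression replicate 1). Deviations of same-numbered arrays correlated at 0.037, -0.033 and -0.0098. With 2 arrays a group these values cannot show whether same-numbered samples were handled together. With a replicate block 2, 0 and 4 PP2C probe sets were called. The causes were not tested. The alternatives for ABA genes and for the clade A median were chosen after seeing the data.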

Other observations

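Among the PP2C probe sets outside the kept set, only the dimmer of OsPP2C45 held a single value far above log2 5. The brighter of OsPP2C51 and the dimmest of OsPP2C48 reached 5.46 in RNAi and 5.87 in wild type, each on 1 array. The dimmer probe set of OsPP2C45 (LOC4337276) read 9.93 and 1.03 in RNAi, 3.76 and 4.97 in overexpression, and 0.00 and 1.19 in wild type, so 1 of 6 arrays exceeded log2 5. The other OsPP2C45 probe set was nearly level at 12.11 and 12.10 in RNAi, 11.75 and 12.03 in overexpression, and 12.10 and 12.19 in wild type. OsPP2C31 (LOC4332406) and OsPP2C18 (LOC4329881) had 0 arrays at log2 5 or over.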
